A study of Mus musculus with 12 samples.

Results

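The mitochondrially encoded genes are the genes carried by the small circular genome inside mitochondria. They were taken as all entries of the 2 deposited expression tables whose symbol starts with mt-, which gave 37 of 48709 genes. By annotation 13 of them code for proteins, 2 for ribosomal RNAs and 22 for transfer RNAs. The values came from mouse bone marrow cells sorted and labelled as hematopoietic stem and progenitor cells (HSPC), the cells from which the blood lineages arise. All animals had the genotype WT, with age, sex and strain not given in the sources used here. The cells received control miR, miR184 or miR499 by transfection, and RNA was taken 2 days later. Of the 12 libraries, 6 are of cells with control miR, 3 of cells given miR184 and 3 of cells given miR499, and no untransfected cells are among them. The table of miR184 held controls 1 to 3 and the table of miR499 held controls 4 to 6, and comparisons were made within a table. The headers of controls 4 to 6 carry a date-like tag that those of miR499 1 to 3 lack, what it marks is not given in the sources used here, and any difference it marks cannot be told apart from miR499. Nothing in the labels ties the replicates to different animals or cultures, so a p-value here covers the spread among these libraries and that spread may be technical.

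The proteins made inside mitochondria are subunits of the respiratory chain and of ATP synthase, and most partner subunits are made from nuclear genes and imported. Both strands of the circle are copied into long transcripts, and the transfer RNAs that lie between the coding regions are cut out to free the mRNAs. After that cut each mRNA has its own stability, so mRNAs from a common transcript can differ in level. Blood stem cells are known for a low reliance on respiration, which rises as they divide and mature. A microRNA pairs through its seed, bases 2 to 8, with mRNAs that contain the complementary letters, mostly in the cytosol.

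The mature forms of both transfected miRNAs are shown because their seeds set the letters looked for in the mitochondrial mRNAs. They are given 5′ to 3′ from the RefSeq table on GRCm38.p6 with the seed in capitals. Both arms are shown because the arm each transfected reagent carried is not given in the sources used here. No seed is shared among these 4.
miR-184-3p: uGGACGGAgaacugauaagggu
miR-184-5p: cCUUAUCAcuuuuccagccagc
miR-499-5p: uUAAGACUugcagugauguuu
miR-499-3p: gAACAUCAcagcaagucugugcu
The seed complements, searched on the transcript strand only, were TCCGTCC for miR-184-3p, TGATAAG for miR-184-5p, AGTCTTA for miR-499-5p and TGATGTT for miR-499-3p. The first 3 of these strings were in 0 of the 13 mitochondrial mRNAs. The letters TGATGTT were in 1 of 13, mt-Nd6, and began at position 387 of that gene. Among nuclear protein-coding transcripts trimmed to the length of mt-Nd6, 3.54% hold TGATGTT, and at the lengths of the 13 genes 1.04% to 14.1% do. At those lengths the first 3 strings are held by 1.02% to 5.04%, 0.529% to 7.7% and 0.517% to 5.67%. The stretch is shown with the complementary letters in capitals, from GENCODE M21 on GRCm38, minus strand of chrM:13666-13695.
mt-Nd6: tatgaggttgaTGATGTTggagttatgttg
A match of letters is a description and not a site of action.

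The ends of several coding regions are shown because neighbouring genes share bases there, and a read from shared bases cannot be given to 1 gene by position alone. Capitals mark the shared bases, again from GENCODE M21 on GRCm38.
mt-Atp8: TATTTGCCTCATTCATTACCCCAACAATAA
mt-Nd4l: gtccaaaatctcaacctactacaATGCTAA
mt-Nd5: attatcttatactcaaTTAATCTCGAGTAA
mt-Nd6: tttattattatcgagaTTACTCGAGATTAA
The first line is the last stretch of mt-Atp8 (chrM:7940-7969) and lies wholly within its 43 bases of overlap with mt-Atp6, which make up 21.1% of mt-Atp8 and 6.31% of mt-Atp6. The mt-Nd4l end (chrM:10144-10173) shares 7 bases with mt-Nd4. The mt-Nd5 and mt-Nd6 ends (chrM:13536-13565 and chrM:13552-13581) lie on opposite strands and share 14 bases, or 2.70% of mt-Nd6. Reads of mt-Nd6 and reads from the opposite strand cannot be told apart in these tables, since the use of strand in counting is not given in the sources used here.

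The starts are shown for the genes that do not begin with ATG, with the first codon in capitals, because all of them encode complex I subunits.
mt-Nd1: GTGttctttattaatatcctaaca
mt-Nd2: ATAaatcctatcacccttgccatc
mt-Nd3: ATTaacctgtacactgttatcttc
mt-Nd5: ATCaatattttcacaacctcaatc
The other 9 protein genes start with ATG. In mt-Co3, mt-Nd4 and mt-Cytb the annotated gene ends 1 base into its last codon, on a T, and the stop codon is known to be completed by the poly(A) tail.

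Depth was similar across the libraries, with 31990355 reads in control 6 and up to 46601798 in control 1, worked back from RPKM, the reads of a gene divided by its length and by the reads of the library. Progenitor genes were present, with Kit at 46.9 to 57.1 RPKM in the miR184 table and 8.17 to 34.3 in the miR499 table, and Cd34 at 109 to 122 and 53.6 to 91.1. The T cell gene Cd3e stayed at or below 0.0156 RPKM and the stromal gene Col1a1 at or below 0.0255. Other genes listed here as markers of further cell types were not all so low. Nkg7, listed for T and NK cells, averaged 323 RPKM in controls 1 to 3 and 448 in controls 4 to 6. Pecam1, listed for endothelial cells, averaged 18.3 and 4.78 RPKM, and Cd79b, listed for B cells, 18.9 and 23.0. Whether such cells were present was not tested. Granulocyte precursor genes were high, with Elane at 2125 to 3451 RPKM over both tables and Mpo at 1167 to 4312. In miR184 3 only 13675 genes were above 0, and 16702 to 17136 were in the rest of that table. The library miR499 3 had a summed RPKM of 391857 against 465018 to 483368 in the rest of its table, and its median-ratio size factor was 1.21 against 0.918 to 0.995. Without them the median change of the 13 mRNAs and medians of gene lists are given as well.

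The 2 ribosomal RNA genes, mt-Rnr1 (chrM:70-1024) and mt-Rnr2 (chrM:1094-2675), were listed at 0 in all 12 libraries, and so were all 22 transfer RNA genes. The same held for every entry of several other short or structural RNA types of the table, among them 2148 miRNA, 1455 snoRNA, 1382 snRNA and 353 nuclear rRNA entries. Of the protein-coding entries, 16362 of 21224 were above 0 in at least 1 library. No level of mitochondrial rRNA or tRNA is given, since the sources used here do not say whether these types were counted. All 13 mRNAs were above 0 in all 12 libraries and passed the filter of the test. A total of 11 nuclear pseudogene entries were at least 95% identical to a mitochondrial mRNA over at least 80% of their length, and 5 of them were identical to it. Of these 11, 10 were listed at 0 in every library, and Gm4076, a copy of part of mt-Nd5, reached 0.0606 RPKM with 4 reads in all.

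The 13 mRNAs were among the most abundant transcripts of the cells. They took 2.90%, 2.73% and 2.67% of all reads in controls 1 to 3 and 3.63%, 3.71% and 3.82% in controls 4 to 6. Counting error alone is small at this depth, since the widest 95% Wilson interval of such a share spans 0.0133 percentage points. In every library the gene with the highest RPKM of all was a mitochondrial mRNA, and 5 or 6 of the 10 highest genes were mitochondrial. The lowest of the 13 still ranked between 154 and 397 among all genes.

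In controls 1 to 3, mt-Co3, which encodes a subunit of cytochrome c oxidase (complex IV), was highest at 8026, 7613 and 7358 RPKM. Next came mt-Atp6, a subunit of the proton channel of ATP synthase (complex V), at 7700, 7307 and 7175 RPKM, and the ranges of these 2 genes overlapped. The lowest was mt-Nd4l, a small membrane subunit of NADH dehydrogenase (complex I), at 297, 310 and 257 RPKM. The 6 genes with the lowest levels per length all encode complex I. The exception in complex I was mt-Nd1, at 3201, 2972 and 2883 RPKM, which stood beside mt-Co1 at 3070, 2877 and 2922 without a gap between them. Between these extremes the order was mt-Co2, mt-Nd1, mt-Co1, mt-Cytb, mt-Atp8, mt-Nd2, mt-Nd4, mt-Nd3, mt-Nd5 and mt-Nd6. The ranges of neighbours overlapped only for mt-Co3 with mt-Atp6, mt-Nd1 with mt-Co1, and mt-Nd3 with mt-Nd5. In controls 4 to 6 mt-Cytb stood above mt-Co1 and mt-Nd6 above mt-Nd5, each with overlapping ranges, and the order was otherwise the same.

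**Figure D1:**
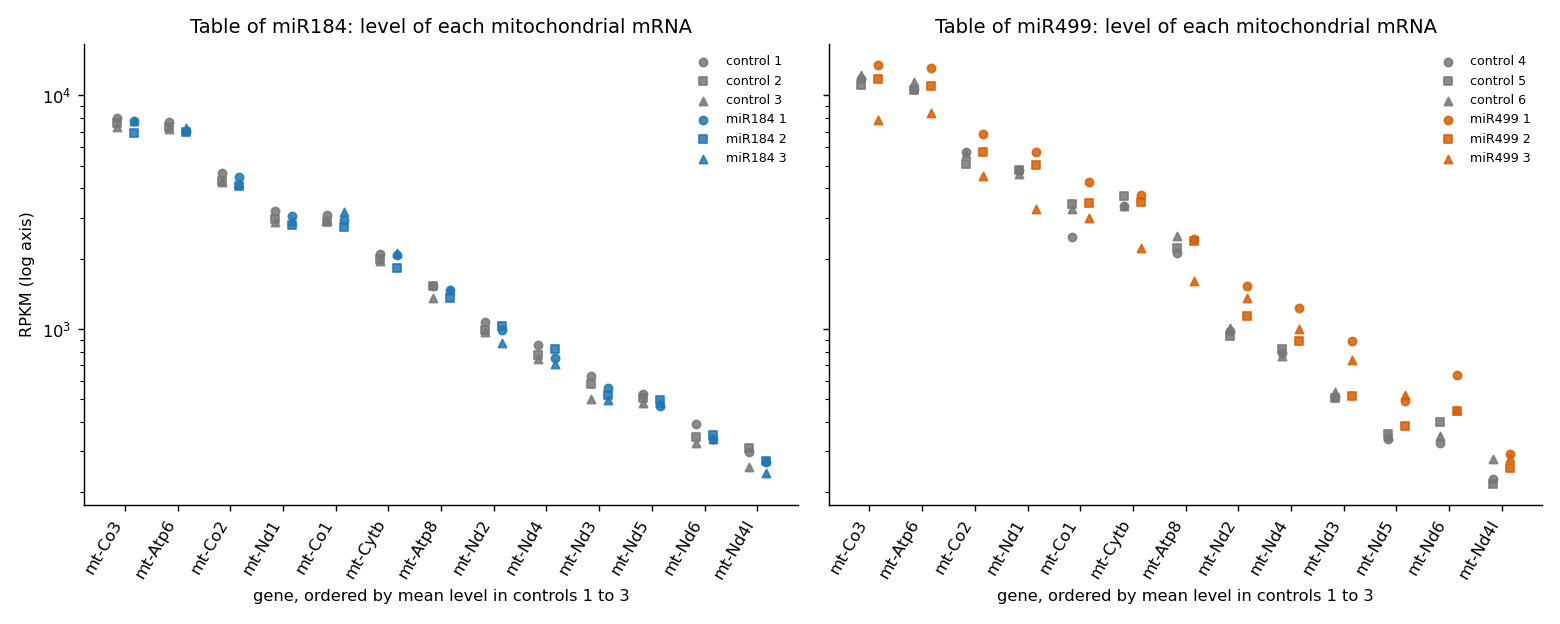
Level of each of the 13 mitochondrial mRNAs in RPKM (log axis) in every library, by table, with controls in grey and treated libraries in colour; each point is 1 library. In both panels mt-Co3 is highest and mt-Nd4l lowest in the control means, and in the right panel all 3 miR499 points of mt-Nd2, mt-Nd4, mt-Nd5 and mt-Nd6 lie above all 3 controls.

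The first question was whether miR184 altered the mitochondrial mRNAs. None of the 13 passed, and their levels in treated and control libraries overlapped in every case. The share of all reads held by the 13 mRNAs was 2.74%, 2.58% and 2.74% in the 3 miR184 libraries, a mean of 2.69% ± 0.0928 (SD, n = 3) against 2.77% ± 0.120 (SD, n = 3) in controls 1 to 3, and the groups overlapped. In bulk RNA of this kind, fewer cells of a type and less of an RNA per cell cannot be told apart. Tested with limma on log2(RPKM + 1), 0 of 13 mRNAs passed at an adjusted p under 0.05, beside 0 of 10372 genes tested, or 0% called. At an unadjusted p under 0.05 the counts were 0 of 13 and 475 of 10372 (4.58%), and limma voom on recovered reads called 0 genes as well. Groups that did not overlap occurred in 0 of 13 mRNAs and in 11.7% of all genes, 7.3% with miR184 higher and 4.41% with miR184 lower.

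All 13 changes with miR184 were below 0, with a median of -0.05 on the log2 scale beside 0.0022 over all genes tested. For the complex I subunit mt-Nd4l the 3 miR184 libraries had 268, 272 and 241 RPKM against the control values above. Its change was the furthest from 0, at -0.14 ± 0.08 (SE), with a limma adjusted p of 0.827, and the miR184 libraries lay within or just below the control range. At the other end mt-Co1, the core catalytic subunit of complex IV, had 2917, 2733 and 3173 RPKM with miR184 and a change of -0.01 ± 0.07 (limma adjusted p = 0.969). The remaining 11 mRNAs lay between these. The mRNAs share a library, so the common direction of the 13 is not 13 separate observations. Control 1 was above the mean of its group for 13 of 13 mRNAs, and without it 3 of 13 changes were above 0 and the median was -0.01. Without miR184 3 all 13 stayed below 0, with a median of -0.06.

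The make-up of the mitochondrial mRNA pool was also close between miR184 and its controls. Complex I mRNAs made up 22.9%, 24.2% and 21.7% of mitochondrial mRNA reads with miR184 and 23.5%, 23.2% and 22.8% in controls 1 to 3. Complex IV mRNAs made up 49.9%, 48.2% and 50.5% against 49.0%, 49.0% and 49.4%. Overlap of the groups was seen for all 4 complexes and for the share of each of the 13 genes. The miR184 libraries were more spread than their controls, since for complexes III and IV each of them lay outside the control range, some above it and some below. The groups of all 4 complexes also overlapped without miR184 3, the library with the lowest complex I share.

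**Figure D2:**
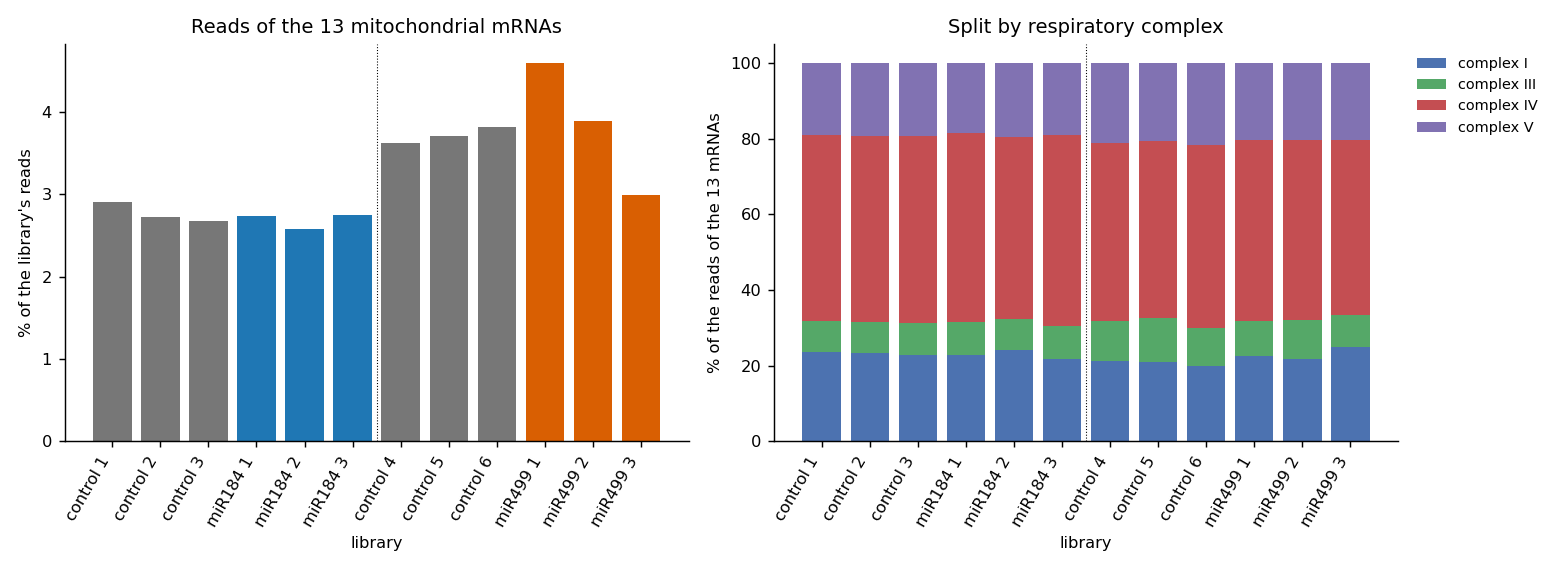
Left, reads of the 13 mitochondrial mRNAs as a percentage of all reads of each library; right, the same reads split by the respiratory complex that each mRNA serves, with 1 bar per library and a dotted line between the tables. The share is 2.58% to 2.90% in the miR184 table and 2.99% to 4.60% in the miR499 table, where the spread lies among the 3 miR499 libraries.

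The second question was whether miR499 altered them. Complex I mRNAs other than mt-Nd1 were higher in every miR499 library than the mean of controls 4 to 6. For mt-Nd3 in miR499 2 the distance was only 0.0013 on the log2 scale. The mRNAs of the other complexes and mt-Nd1 were also above that mean in miR499 1 and miR499 2, and below it in miR499 3. None of the 13 passed with all libraries, and mt-Nd2 and mt-Nd6 passed, as higher, once miR499 3 was left out, beside 3.47% of all genes. The 13 mRNAs together took 4.60%, 3.88% and 2.99% of reads with miR499, a mean of 3.82% ± 0.802 (SD, n = 3) against 3.72% ± 0.0955 (SD, n = 3). The libraries miR499 1 and miR499 2 were above all 3 controls and miR499 3 was below all of them, so the groups overlapped. The difference in mean share was 0.105 percentage points with all libraries, 0.52 without miR499 3 and -0.28 without miR499 1.

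With all 6 libraries, limma on log2(RPKM + 1) called 0 of 13 mRNAs at an adjusted p under 0.05, beside 0 of 9815 genes tested, or 0% called, and voom on recovered reads called 0 as well. At an unadjusted p under 0.05 the counts were 3 of 13 (mt-Nd2, mt-Nd5 and mt-Nd6) and 992 of 9815 (10.1%). The groups did not overlap, with miR499 higher, in 4 of 13 mRNAs, namely mt-Nd2, mt-Nd4, mt-Nd5 and mt-Nd6, and in 11.4% of all genes tested. The median change of the 13 was 0.19 beside -0.0072 over all genes. By complex, 6 of 7 complex I mRNAs were above 0 with a median of 0.41, and 2 of 6 of the others with a median of -0.07.

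Among the complex I mRNAs, mt-Nd6 is the only protein gene on the opposite strand of the circle (chrM:13552-14070). It was at 327, 400 and 350 RPKM in controls 4 to 6 and at 639, 444 and 450 with miR499. All miR499 libraries were above all controls, with miR499 1 furthest. The change was 0.49 ± 0.19 on the log2 scale (SE), with a limma adjusted p of 0.491.

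The gene mt-Nd2 (chrM:3914-4951), a membrane subunit of complex I, was at 984, 938 and 1009 RPKM in the controls and at 1536, 1136 and 1355 with miR499. Again the groups did not overlap, and the change was 0.45 ± 0.18 (limma adjusted p = 0.491). The gene mt-Nd5 (chrM:11742-13565), one of the proton-pumping subunits, was at 338, 354 and 348 RPKM in the controls and at 491, 383 and 521 with miR499. Here miR499 3 was the highest library of the table and the controls were close to each other, and the change was 0.41 ± 0.16 (limma adjusted p = 0.491).

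The related pumping subunit gene mt-Nd4 (chrM:10167-11544) was at 789, 818 and 769 RPKM in the controls and at 1229, 888 and 999 with miR499. These groups did not overlap, and the change was 0.38 ± 0.18 (limma adjusted p = 0.495). For mt-Nd3 (chrM:9459-9806), also a membrane subunit, the values were 512, 505 and 536 RPKM and, with miR499, 893, 518 and 739. The library miR499 2 lay inside the control range, so the groups overlapped, and the change was 0.43 ± 0.22. For mt-Nd4l (chrM:9877-10173) the values were 229, 218 and 278 RPKM and, with miR499, 290, 254 and 281, which overlapped, with a change of 0.19 ± 0.15.

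The gene mt-Nd1 (chrM:2751-3707), the most abundant complex I mRNA, did not go with the other complex I genes. It was at 4774, 4805 and 4596 RPKM in the controls and at 5712, 5026 and 3276 with miR499. Both miR499 1 and miR499 2 were above every control and miR499 3 was below every control, and the change was -0.05 ± 0.29.

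Outside complex I, miR499 1 was above the control mean and miR499 3 below it for every mRNA. The library miR499 2 was closer to the control mean than miR499 1. It lay inside the control range for mt-Cytb, mt-Co3, mt-Atp6 and mt-Atp8, and just above it for mt-Co1 and mt-Co2. For mt-Cytb (chrM:14145-15288), the mitochondrial subunit of complex III, the values were 3361, 3722 and 3348 RPKM in the controls and 3739, 3503 and 2227 with miR499. For mt-Co3 (chrM:8607-9390) they were 11778, 11028 and 12261 RPKM and, with miR499, 13507, 11748 and 7857. In both genes miR499 1 was the highest and miR499 3 the lowest of the 6 libraries, and the changes were -0.17 ± 0.27 and -0.12 ± 0.34.

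For mt-Atp6 (chrM:7927-8607) the controls had 10698, 10529 and 11387 RPKM and miR499 had 13070.0, 10955 and 8435. For its overlapping neighbour mt-Atp8 (chrM:7766-7969), also a subunit of ATP synthase, the controls had 2117, 2232 and 2499 RPKM and miR499 had 2437, 2393 and 1605. Both genes were lowest in miR499 3, with changes of -0.03 ± 0.32 and -0.11 ± 0.24.

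For mt-Co2 (chrM:7013-7696), which holds the site where cytochrome c hands over electrons, the controls had 5730.3, 5102 and 5639 RPKM and miR499 had 6868, 5752 and 4506. For mt-Co1 (chrM:5328-6872) the controls had 2488, 3437 and 3250.0 RPKM and miR499 had 4280, 3454 and 3000. Only mt-Co1 among the 6 non-complex-I mRNAs had a control, control 4, below miR499 3. The changes were 0.04 ± 0.27 for mt-Co2 and 0.22 ± 0.25 for mt-Co1. Over mt-Nd1 and these 6 genes the limma adjusted p was 0.700 to 0.970.

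**Figure D3:**
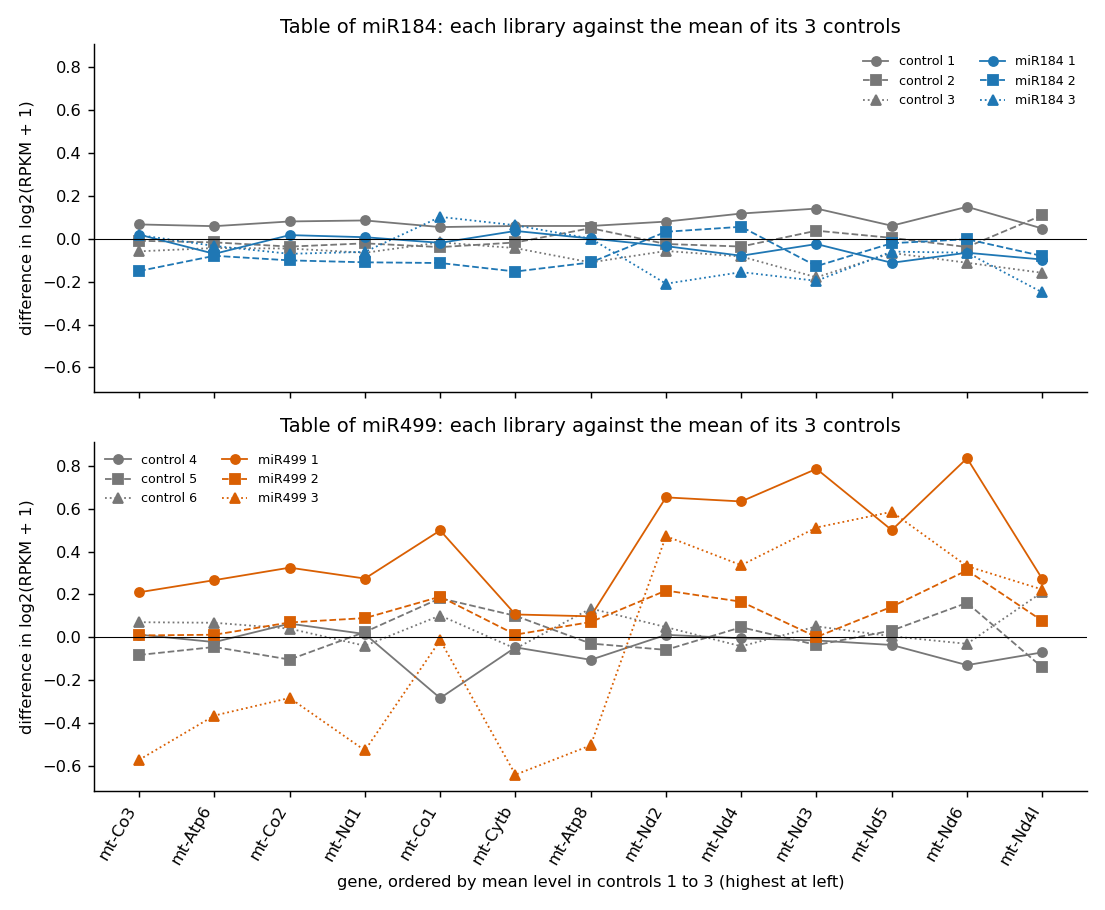
Difference of each library from the mean of the 3 controls of its table, in log2(RPKM + 1), for each mRNA; lines join the genes of 1 library. In the lower panel the line of miR499 3 lies below 0 for mt-Nd1 and the mRNAs of complexes III, IV and V (down to -0.64 at mt-Cytb) and above 0 for mt-Nd2, mt-Nd3, mt-Nd4, mt-Nd4l, mt-Nd5 and mt-Nd6 (up to 0.585 at mt-Nd5), while miR499 1 and miR499 2 lie above 0 for all 13.

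Each miR499 library had its own pattern across the 13 genes. In miR499 1 all 13 were above the control mean, from 0.0978 for mt-Atp8 to 0.835 for mt-Nd6 on the log2 scale. In miR499 2 all 13 were above it as well, from 0.0013 for mt-Nd3 to 0.312 for mt-Nd6, so mt-Nd6 was furthest above the controls in both. In miR499 3, 6 of 13 were above it, all of them complex I genes.

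Without miR499 3, a choice made after seeing the data, all 13 changes were above 0 with a median of 0.20, beside -0.06 over all genes. With limma 2 of 13 then passed, both higher, beside 341 of 9815 genes that passed as higher (3.47%) and 1681 in either direction (17.1%). With median-ratio scaling in addition the same 2 passed, beside 466 genes higher (4.75%). For mt-Nd6 the change was 0.57 ± 0.15 (limma adjusted p = 0.0329) and for mt-Nd2 it was 0.44 ± 0.12 (limma adjusted p = 0.0437). Over all settings tried the adjusted p ran from 0.0305 to 0.881 for mt-Nd6 and from 0.0424 to 0.881 for mt-Nd2. Among those that did not pass were mt-Nd4 at 0.40 ± 0.13 and mt-Nd5 at 0.32 ± 0.10, with limma adjusted p of 0.0601 and 0.0633. In all 4 of these genes miR499 1 was further above the controls than miR499 2.

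**Figure D4:**
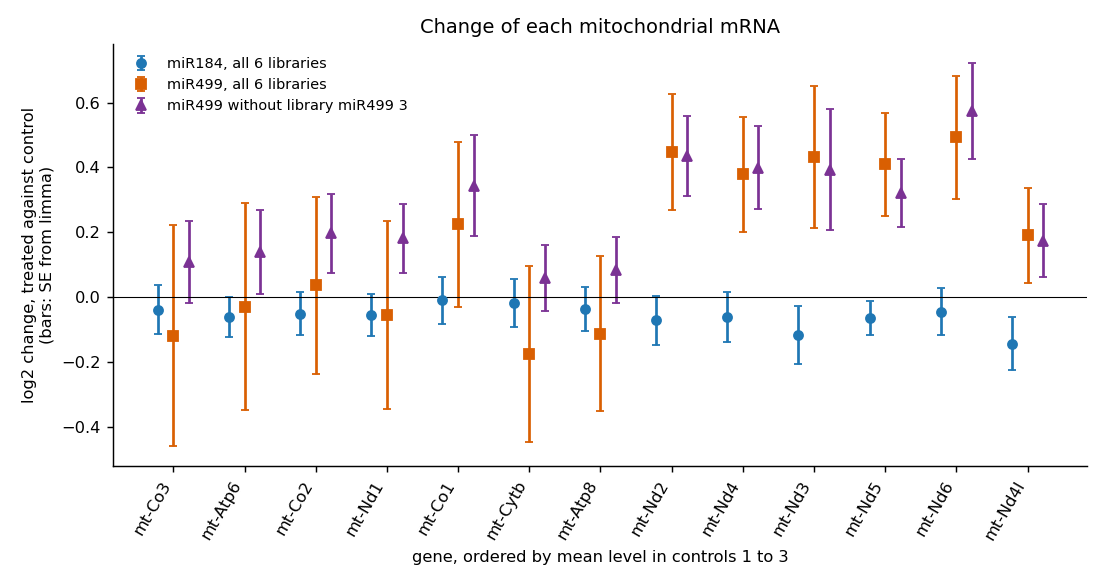
Change in log2(RPKM + 1) of each mRNA with its standard error from limma, for miR184 and miR499 with all 6 libraries of the table and for miR499 without miR499 3. The miR184 changes lie between -0.14 and -0.01, and the standard errors with miR499 fall when miR499 3 is left out, from 0.34 to 0.13 for mt-Co3.

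As a share of the mitochondrial mRNA reads, complex I mRNAs made up 21.3%, 20.99% and 19.9% in controls 4 to 6 and 22.6%, 21.6% and 24.9% with miR499. Every miR499 library was above every control, including miR499 3, and the scaling of a library cancels in this share. Without mt-Nd1 the complex I share was 8.66%, 8.61% and 8.36% in the controls and 10.7%, 9.24% and 14.4% with miR499, again without overlap. In controls 1 to 3 it was 12.96%, 12.8% and 12.5%, and 23.5%, 23.2% and 22.8% with mt-Nd1 counted. Both lay above controls 4 to 6 and within the range of the miR499 libraries, and the difference between the tables was not tested. Counting error of such shares is small, with a widest 95% Wilson interval of 0.195 percentage points. Complex V mRNAs made up 21.28%, 20.54% and 21.65% in the controls and 20.45%, 20.47% and 20.28% with miR499. All miR499 libraries were below all controls, but only barely. Control 5 at 20.54% and miR499 2 at 20.47% lay closer together than that interval is wide. The shares of complex III and complex IV overlapped. By gene, the share was higher without overlap for mt-Nd2, mt-Nd4, mt-Nd5 and mt-Nd6, and overlapped for the other 9. The smallest p that an exact permutation test of 3 against 3 libraries can give is 0.1, and a sum over chosen genes is given here as a description only.

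Read against the strand that carries the other 12 mRNAs, mt-Nd6 was at 7.46, 9.15 and 7.62 per 1000 RPKM of those 12 in controls 4 to 6 and at 11.8, 9.66 and 12.9 with miR499. All 3 miR499 libraries were above all 3 controls. In the miR184 table the same quantity was 11.6, 10.8 and 10.6 in the controls and 10.6, 11.8 and 10.7 with miR184, which overlapped. In this ratio, which is taken within a library, controls 1 to 3 lay above controls 4 to 6 and within the range of the miR499 libraries, and the difference between the separately normalized tables was not tested.

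Whether the 2 miRNAs differed from each other was tested on all 12 libraries, as the miR499 change minus the miR184 change. With limma, 0 of 13 mRNAs and 0 of 9566 genes (0%) passed at an adjusted p under 0.05. At an unadjusted p under 0.05 the counts were 5 of 13 and 911 of 9566 (9.52%). Those 5 were all complex I mRNAs, with differences of 0.52 ± 0.18 for mt-Nd2, 0.55 ± 0.24 for mt-Nd3, 0.44 ± 0.18 for mt-Nd4, 0.47 ± 0.16 for mt-Nd5 and 0.54 ± 0.20 for mt-Nd6. Over the 13 mRNAs the limma adjusted p ran from 0.492 to 0.999. Without miR499 3, 832 genes passed (8.7%) and 0 of the 13, with the smallest limma adjusted p at 0.0570 for mt-Nd6. No difference between the miRNAs passed for any of the 13 in either fit.

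Entries that hold leftover ribosomal RNA stood higher in the miR499 libraries than in their controls. Rn18s-rs5, a copy of the cytosolic 18S ribosomal RNA, was at 31.0, 28.8 and 26.4 RPKM in controls 4 to 6 and at 63.2, 43.6 and 114 with miR499. Gm26917, an entry over ribosomal DNA, was at 47.0, 42.0 and 40.5 RPKM and, with miR499, at 117, 75.1 and 141. Both were higher in every miR499 library than in any control, and highest in miR499 3. That library was the lowest of its table for mt-Nd1, mt-Cytb, mt-Co2, mt-Co3, mt-Atp6 and mt-Atp8, but not for mt-Co1 or the other complex I mRNAs. The library miR499 1 was second in both entries and the highest of its table for all mitochondrial mRNAs but mt-Nd5 and mt-Atp8. The nuclear-retained RNA Malat1 was at 325, 494 and 459 RPKM in the controls and at 563, 644 and 149 with miR499. Of the RNA quality list, 8 of 10 entries were listed, 4 of them at 0 in all 6 libraries, and its summed level was 412 to 578 RPKM in the controls and 422 to 780 with miR499. In the miR184 table Rn18s-rs5 was at 66.7 to 87.5 RPKM in controls and 85.7 to 97.7 with miR184, which overlapped. Gm26917 was at 106, 106 and 86.9 RPKM in those controls and at 125, 138 and 119 with miR184, higher without overlap in that table too. The part of RNA quality in the complex I and mt-Nd6 results was not tested.

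Marker lists of cell types are given beside these results, and with limma 0 of their members passed in the miR499 table with all 6 libraries. The 12 progenitor markers, 10 of them tested, summed to 558 to 631 RPKM in controls 4 to 6 and to 500.0 to 530.2 with miR499, without overlap. By gene, 7 of the 10 were above 0, with a median of 0.13. Among them were Kit, the receptor of stem cell factor, at 0.90 ± 0.39 and the transcription factor Gata2 at 0.51 ± 0.19 (limma adjusted p = 0.491 for each). Without miR499 3 these 2 of the 10 passed as higher, beside 3.47% of all genes, at 0.43 ± 0.12 for Kit and 0.31 ± 0.08 for Gata2 (limma adjusted p = 0.0423 and 0.0328). Cd34, a surface protein of progenitors, was the 1 marker of the 10 that passed as lower, beside 13.7% of all genes. Neutrophil and precursor markers summed to 4989 to 6182 RPKM in the controls and to 4909 to 9487 with miR499, which overlapped. By gene, 4 of 7 were above 0 and 3 below, with 2 higher and 2 lower without overlap. Over all genes tested, 11.4% were higher and 12.8% lower without overlap. The lower 2 were Ngp at -1.67 ± 0.23 and Camp at -0.76 ± 0.25 (limma adjusted p = 0.491 for each). Without miR499 3, 2 of the 7 passed as lower, Ngp among them, beside 13.7% of all genes. Monocyte and macrophage markers summed to 2437 to 3156 RPKM in the controls and to 1838 to 2116 with miR499. Erythroid markers stayed low, at 3.74 to 7.31 RPKM in all in the controls and 3.96 to 28.8 with miR499, which overlapped. The part of cell make-up in the mitochondrial results was not tested.

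Nuclear genes that serve mitochondrial gene expression and the respiratory chain were described through 13 lists with 263 different genes in the tables. With limma 0 of 261 tested members passed for miR184 and 0 of 258 for miR499, beside 0% of all genes in either comparison. For miR184, 125 of the 261 were above 0, and the list medians lay between -0.04 and 0.11. Without miR184 3, 101 were above 0 and the medians lay between -0.06 and 0.0038. The sign then turned for 6 of the 13 lists, among them transcription, from 0.11 to -0.01, translation factors, from 0.08 to -0.0088, and tRNA synthetases, from 0.04 to -0.01. For miR499, 36 of the 258 were above 0, and 111 without miR499 3. Of the 13 mitochondrial mRNAs 8 were above 0 with all libraries, and no test compared them with the lists.

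The nuclear partners of the mitochondrially encoded subunits depended on miR499 3. Nuclear complex I subunits were below 0 in 36 of 36 members, with a median of -0.22, and without miR499 3 they were above 0 in 28 of 36 with a median of 0.12. Their summed level was 9561 to 10050.0 RPKM in controls 4 to 6 and 5217 to 11210.0 RPKM with miR499. Nuclear complex IV subunits went from a median of -0.17 to 0.21 without that library, with 14 of 14 above 0 and 3 passing as higher (Cox7a1, Cox7c and Cox6c), beside 3.47% of all genes. For complex V the medians were -0.20 and 0.12, for complex III -0.23 and 0.10, and for the mitoribosome proteins, which build the ribosome that translates the 13 mRNAs, -0.22 and -0.01.

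Lists of the machinery that makes and handles mitochondrial RNA had medians below 0 with and without miR499 3, and for tRNA synthetases the sign turned when another library was left out. Transcription factors and their partners had a median of -0.18 with all libraries and -0.12 without it. RNA processing and modification genes had -0.13 and -0.26, RNA stability and decay genes -0.14 and -0.20, and tRNA synthetases -0.04 and -0.22, with up to 0.06 when any single library was left out. Without miR499 3, 35 of the 258 tested list members passed as lower, or 13.6%, beside 13.7% of all genes, and 7 passed as higher, or 2.71% beside 3.47%. These shares are near the background and are no result about the lists.

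Among the named members, Tefm, the elongation factor of mitochondrial transcription, was at 20.03, 16.7 and 18.6 RPKM in controls 4 to 6 and at 13.1, 12.8 and 12.9 with miR499. Its groups did not overlap, and its change was -0.48 ± 0.12 (limma adjusted p = 0.491), or -0.47 ± 0.09 without miR499 3 (limma adjusted p = 0.0155). Trmt10c, a subunit of the RNase P that cuts the 5′ ends of mitochondrial tRNAs, was at 23.2, 23.5 and 25.9 RPKM and, with miR499, at 14.0, 18.6 and 13.8. It too had groups that did not overlap, with a change of -0.62 ± 0.15, and -0.55 ± 0.12 without miR499 3 (limma adjusted p = 0.491 and 0.0189). Trnt1, which adds CCA to the 3′ ends of tRNAs, was at 21.5, 21.6 and 23.0 RPKM and, with miR499, at 14.8, 15.3 and 16.7. Its changes were -0.47 ± 0.11 with all libraries and -0.52 ± 0.08 without miR499 3, where the limma adjusted p was 0.00937. Over all genes tested, 12.8% were lower with miR499 without overlap. Some list members went up with all libraries. In the transcription list 1 of 10 was above 0, Polrmt, the mitochondrial RNA polymerase, at 0.58. In RNA processing and modification it was 4 of 17, and in RNA stability and decay 6 of 17, with Tbrg4 at 0.74.

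Lower without overlap were also Rars2, the mitochondrial arginyl-tRNA synthetase, at -0.48 ± 0.12, Pnpt1, a mitochondrial RNA-degrading enzyme, at -0.38 ± 0.14, and Mrps10, a protein of the small mitoribosome subunit, at -0.41 ± 0.13 (limma adjusted p = 0.491 for each). For Lars2, the mitochondrial leucyl-tRNA synthetase, the values were 92.2, 84.8 and 81.4 RPKM in the controls and 206, 96.1 and 378 with miR499. All miR499 libraries were above all controls, in the order miR499 3, miR499 1, miR499 2 that Rn18s-rs5 also had. The part of leftover ribosomal RNA in the level of this entry was not tested. With miR184, Mrps30, another mitoribosome protein, was higher without overlap at 0.60 ± 0.13 (limma adjusted p = 0.410), or 0.48 ± 0.11 without miR184 3 (limma adjusted p = 0.244), and Yars2, the mitochondrial tyrosyl-tRNA synthetase, at 0.33 ± 0.09 (limma adjusted p = 0.534).

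**Figure D5:**
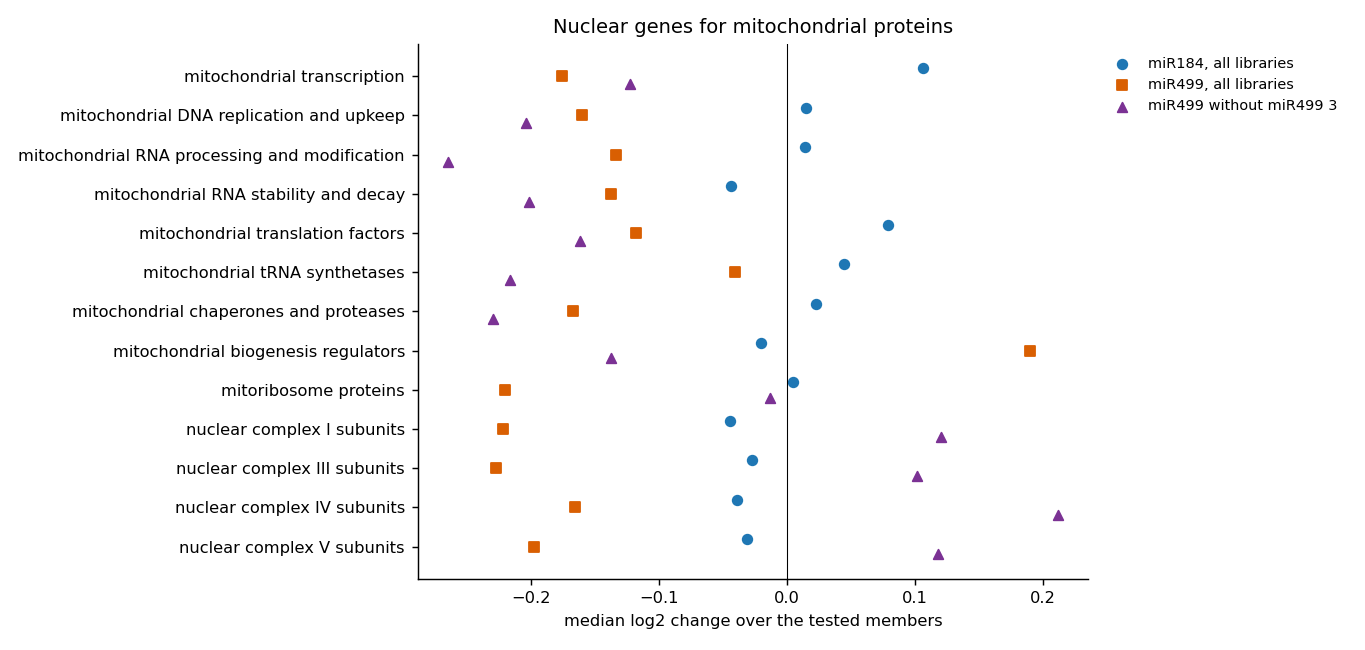
Median change in log2(RPKM + 1) over the tested members of each list of nuclear genes for mitochondrial proteins, for miR184, for miR499, and for miR499 without miR499 3. The lists of nuclear respiratory subunits lie near -0.2 with all miR499 libraries and between 0.10 and 0.21 without miR499 3, and all miR184 medians lie between -0.04 and 0.11.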

How the data were processed

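The authors deposited 2 tables of RPKM values per gene, per the file headers, with 48709 genes and 6 libraries each, and no column of values was left unused (0). Per the submitters' processing notes the build was mm10. The aligner, the counter, the annotation, the use of strand and the RNA selection: not given in the sources used here. The labels give total RNA, extracted with a PicoPure kit, and the design text speaks of mRNA.

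Whole reads were recovered from the RPKM values of 100% of genes above 0, within 0.01 reads. For 5934 of 19676 such genes in the miR184 table and 5951 of 19742 in the miR499 table the gene length was itself worked out from the values, so for these whole reads are in part set by that step. They served for shares and for limma voom (limma 3.58.1, R 4.3.3). Each miRNA was tested within its table with limma, with an intensity trend, on log2(RPKM + 1) for genes with a mean RPKM of at least 1, at a Benjamini-Hochberg adjusted p under 0.05, two-sided. A change on this scale understates that of low genes. The difference between the miRNAs was fitted on all 12 libraries in 4 groups. Genes, positions and transcript sequences came from GENCODE M21 on GRCm38. Nuclear copies were found with blastn 2.17.0. Intervals cover counting error only. The scripts were tested on simulated data.

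The members and lists were chosen with earlier results of these data known. Named are all 13 mRNAs and, of each list, members among the 2 with the smallest p in each comparison. Malat1 and the sums over marker lists were added as measures of RNA quality and cell make-up. Numbers in the sample titles of controls 1 to 3 and miR184 1 to 3 are shared. Same-numbered libraries deviated together with correlations of only 0.0622, -0.0485 and -0.0283, and they were not treated as pairs. Such correlations over 3 libraries per group cannot show whether same-numbered libraries share an animal or culture. Alternatives were the scaling, the filter, the pseudocount (0.1), voom, all libraries in a single fit, a replicate block and each library left out. Figures were drawn with matplotlib 3.10.9, and tables were handled in Python 3.11.15 (pandas 2.3.3, numpy 2.4.6). A further cell type marker was looked up and is not reported here.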

Additional observations from a re-analysis of the deposited data

How the results depend on the processing

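For miR184, 0 mitochondrial mRNAs passed under any setting; the count over all genes was 2 with the replicate block, and 0 to 2 with each library left out (2 without control 1). Whether the shared numbers mark pairs is not given in the sources used here, and the block added 0 mitochondrial mRNAs. No paired analysis was possible for miR499 because controls 4 to 6 and miR499 1 to 3 share fewer than 2 numbers in their titles; the sample descriptions number the libraries differently, and no fit was made with those numbers. For miR499, leaving out each library in turn gave 0 to 1681 genes and 0 to 2 mitochondrial mRNAs. Without miR499 3, chosen after seeing the data, 1376 genes and 2 of the mRNAs passed with median-ratio scaling, and 1417 genes and 2 of the mRNAs with scaling to all entries except mitochondrial ones. The difference between the miRNAs gave 1 gene with no filter and 0 to 832 genes with each library left out. As a share of summed RPKM in place of reads, the miR184 difference was -0.251 percentage points, against -0.0788.

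Signs turned for mRNAs with changes near 0 in the miR499 comparison; the cause was not tested. With scaling to all entries except mitochondrial ones mt-Nd1 was 0.041 and mt-Atp6 0.067, and with median-ratio scaling mt-Co2 was -0.034. Without miR499 3 and with median-ratio scaling, mt-Nd1 was 0.22, mt-Cytb 0.097, mt-Co3 0.15, mt-Atp6 0.18, mt-Atp8 0.12 and the nuclear Cox5a 0.093; with scaling to non-mitochondrial entries in its place they were 0.19, 0.067, 0.12, 0.15, 0.092 and 0.064. In the difference between the miRNAs, scaling to non-mitochondrial entries gave 0.095 for mt-Nd1, 0.015 for mt-Co3 and 0.019 for mt-Atp8, and median-ratio scaling gave -0.032 for mt-Atp6.

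With each library left out in turn, the miR184 change ran from -0.10 to 0.031 for mt-Nd6, -0.058 to 0.050 for mt-Cytb, -0.066 to 0.042 for mt-Co1, -0.067 to 0.019 for mt-Co3, -0.091 to 0.0015 for mt-Atp8 and -0.12 to 0.015 for Uqcrh. The miR499 change ran from -0.22 to 0.18 for mt-Nd1, -0.31 to 0.059 for mt-Cytb, -0.11 to 0.20 for mt-Co2, -0.28 to 0.11 for mt-Co3, -0.18 to 0.14 for mt-Atp6, -0.22 to 0.085 for mt-Atp8 and -0.38 to 0.056 for Cox5a. The difference ran from -0.17 to 0.24 for mt-Nd1, -0.30 to 0.077 for mt-Cytb, -0.056 to 0.25 for mt-Co2, -0.24 to 0.15 for mt-Co3, -0.12 to 0.20 for mt-Atp6 and -0.18 to 0.12 for mt-Atp8. The changes of mt-Nd2, mt-Nd3, mt-Nd4, mt-Nd4l, mt-Nd5 and mt-Nd6 with miR499 stayed above 0 under all settings run. Counting error is small for all 13 mRNAs at this depth.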

Other observations

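The controls of the 2 tables differed from each other in the mitochondrial mRNAs, although all 6 received control miR. Against controls 1 to 3, controls 4 to 6 had 1.72 times the mean RPKM of mt-Cytb, 1.57 times that of mt-Nd1, 1.55 times that of mt-Atp8, 1.52 times that of mt-Co3, 1.47 times that of mt-Atp6 and 1.25 times that of mt-Co2. In these 6 genes every control of the second table was above every control of the first. The complex I gene mt-Nd5 went the other way, with 0.688 times the mean and no overlap. The remaining mt-Nd2, mt-Nd3, mt-Nd4, mt-Nd4l, mt-Nd6 and mt-Co1 overlapped, with ratios of 0.839 to 1.03. The tables were normalized separately, and table and control set cannot be told apart, so this is a description with no test.

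The mRNAs that were higher in controls 4 to 6 are those that were lowest in miR499 3, with mt-Cytb, mt-Co3, mt-Nd1, mt-Atp8, mt-Atp6 and mt-Co2 in both groups. For mt-Cytb, miR499 3 had 2227 RPKM, between the 3348 to 3722 of its own controls and the 1959 to 2105 of controls 1 to 3, and for mt-Co3 it had 7857 RPKM, within the 7358 to 8026 of controls 1 to 3. For mt-Nd5 it had 521 RPKM, within the 481 to 525.5 of controls 1 to 3 and above the 338 to 354 of its own controls. In level these 3 genes of miR499 3 were closer to the controls of the other table than to those of its own. Other genes were not: mt-Nd2, mt-Nd3, mt-Nd4 and mt-Nd6 had 1355, 739, 999 and 450 RPKM in miR499 3, above every control of both tables.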
